A study of Mus musculus with 10 samples.

Results

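The mitochondrial ribosomal proteins were examined in cortical cultures of newborn FVB mice by RNAseq and ribosome footprinting (RF). Members were all genes with symbols starting Mrpl or Mrps followed by digits, 1 transcript for each, the one with the most RNAseq reads on average. The rule gave 59 of the 13189 genes counted. Of these 39 code for proteins of the large subunit, 19 for proteins of the small subunit, and Mrps36 carries the name without being a subunit of the ribosome. The annotation held 78 protein-coding genes with such symbols. The other 19 had no transcript among those counted and matched to the annotation, so they could not be examined.

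All cultures were mixed cortical cultures of neurons and glia from postnatal day 0 FVB pups, kept for 7 days in vitro. Cultures 1, 2 and 3 were untreated, and cultures 4 and 5 were depolarized with 55 mM KCl for 3 h. All received 100 µg/ml cycloheximide for 7 min before lysis, and each culture gave 1 RNAseq and 1 RF library. The mixture of cells is a limit of the model: fewer cells of a type and less RNA per cell cannot be told apart. Another KCl culture was removed by the authors for its small library. The culture numbers do not say whether cultures came from separate litters, so p-values measure the spread between these cultures, which may be technical.

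Mitochondria carry their own ribosome, the mitoribosome, which translates the few mRNAs of the mitochondrial genome into core subunits of the respiratory chain. Its RNAs come from mitochondrial DNA, but all of its proteins are encoded in the nucleus, translated on cytosolic ribosomes and imported. The footprints measured here therefore report how cytosolic ribosomes occupy the mRNAs of mitoribosomal proteins, not what mitoribosomes translate. Some of these proteins have counterparts in bacterial ribosomes and others are specific to mitochondria.

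RNAseq values counted the reads of a whole transcript, and RF values the footprints on its coding sequence (CDS). Translation efficiency (TE) was the ratio of RF to RNAseq within a culture. A transcript counted as measured when RNAseq and RF reached 10 RPKM together, that is, reads per kilobase of length per 1000000 reads of the library, in 2 or more cultures. That held for 7262 transcripts of 4370 genes and for 38 members, 25 of the large and 13 of the small subunit. Library totals, as counts summed over all transcript regions, were 3056286 to 3629959 reads in RNAseq and 1463654 to 7719915 reads in RF. Untreated culture 3 and KCl culture 4 were the shallowest in RF. A read that several transcripts share can be counted for each, so the totals are not numbers of distinct reads. A measured member had a median of 43.5 CDS footprints in KCl culture 4 and 247.5 in untreated culture 1, so single RF values are less precise in the shallow libraries.

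In untreated cultures the measured members were expressed at moderate levels. Their median RNAseq level was 29.4 RPKM, beside 21.5 over all measured transcripts, and their median RF level was 49.2 RPKM, beside 37.5. The large and small subunits were alike in this respect, with median RNAseq levels of 27.9 and 29.7 RPKM. Within the set, however, single members ranged from 10.6 to 343 RPKM.

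Mrps6, a small-subunit protein with a bacterial counterpart, had the highest RNAseq level, 276, 391 and 363 RPKM in cultures 1, 2 and 3. All 3 values were above those of every other measured member. Mrpl34 (111 ± 3.74 RPKM, SD, n = 3) and Mrpl36 (101 ± 6.08 RPKM, SD, n = 3), both small proteins of the large subunit, came next, and the highest culture of Mrpl36, at 107.1 RPKM, lay just below the lowest of Mrpl34, at 107.3 RPKM. Mrpl13 (60.7 ± 8.95 RPKM) and Mrpl4 (60.1 ± 7.37 RPKM) followed and did not differ beyond their spread. At the low end, Mrps26, Mrpl44, Mrpl35, Mrps27 and Mrps31 lay between 10.6 and 13.7 RPKM, with SDs of 0.916 to 3.76 RPKM, so that their order was within the error. Exons of Mrps6 are shared on the same strand with the protein-coding gene model Gm49711 over 305 nt, or 36.1% of the transcript, and with Slc5a3, an inositol transporter gene, over 159 nt, or 18.8%, so that reads there cannot be assigned to one gene.

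The order of the RF levels differed below the first place. Mrps6 again stood highest, at 261 ± 16.6 RPKM (SD, n = 3), followed by Mrps14 at 153 ± 11.1, Mrpl17 at 150 ± 7.09, Mrps17 at 96.7 ± 3.43 and Mrpl13 at 81.4 ± 18.1 RPKM. Mrps14 and Mrpl17 overlapped between cultures. Mrps27, Mrpl38, Mrps9, Mrpl37 and Mrps2 had the lowest RF levels, 21.0 to 28.6 RPKM. Mrps27, a mitochondria-specific protein of the small subunit, was thus low in both assays.

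Untreated TE of the members centred on 1.58, with 1.69 over all measured transcripts, and 20 of 38 members lay below the latter value. It was lowest for Mrpl34, at 0.651, 0.537 and 0.508 in cultures 1, 2 and 3. Mrpl37 (0.727 ± 0.0616, SD, n = 3), Mrps6 (0.778 ± 0.152), Mrpl36 (0.799 ± 0.0147) and Mrps28 (0.803 ± 0.0697) followed without differing from each other beyond their spread. The highest TE was that of Mrpl17, a protein of the large subunit, at 7.65, 5.60 and 6.42. Mrps14 (5.35 ± 0.951), Mrpl35 (4.73 ± 0.891), Mrps26 (4.68 ± 1.24) and Mrpl24 (4.56 ± 1.32) lay within the spread of their neighbours.

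**Figure D1:**
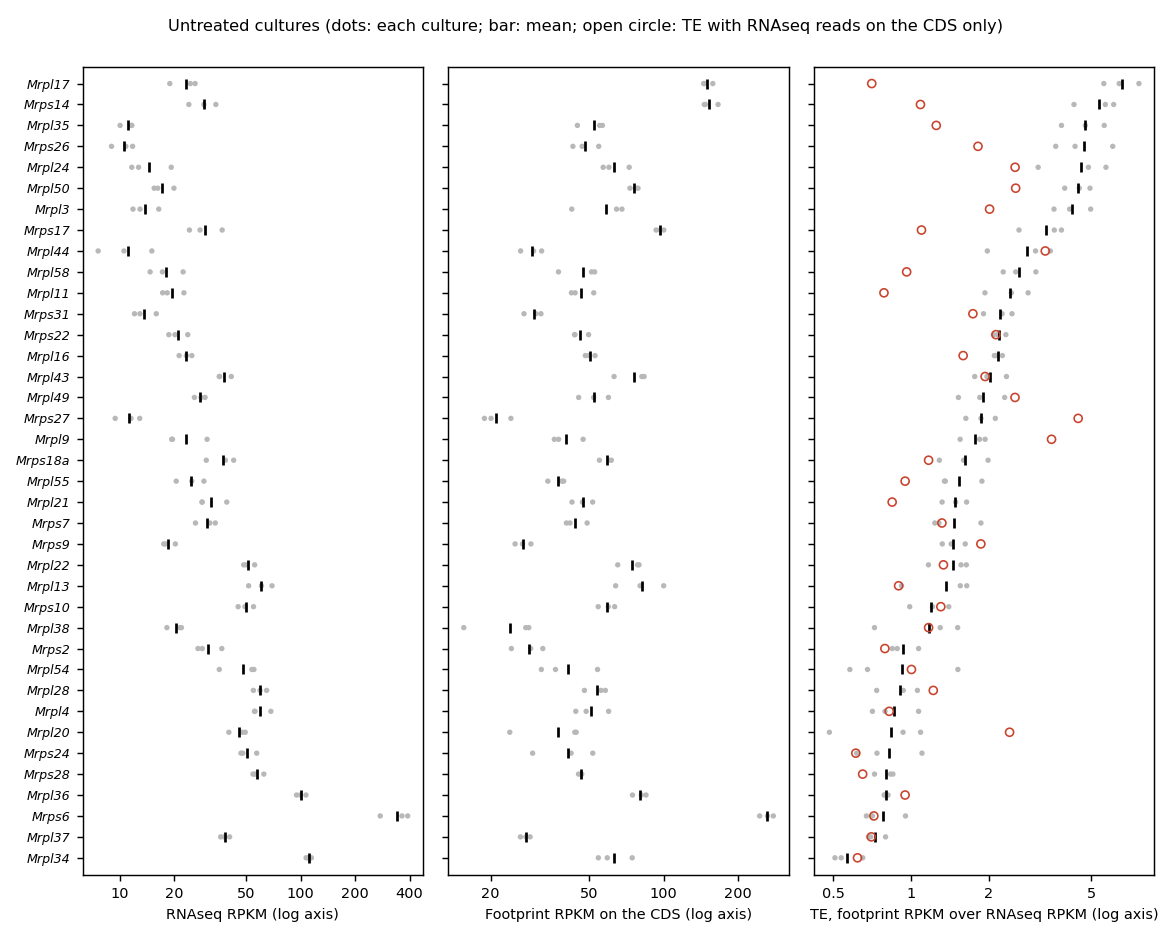
RNAseq RPKM, CDS footprint RPKM and TE (log axes) of the 38 measured members in untreated cultures, ordered by TE, with a grey dot for each of 3 cultures, a bar for their mean and an open circle for TE computed from RNAseq reads on the CDS only. Mrps6 stands apart in both assays, and the open circles of the members with the highest TE lie to the left of their bars, as for Mrpl17 with 0.705 against 6.55.

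The order of the TE values depended on which RNAseq reads were used. With RNAseq reads on the CDS over CDS length, Mrpl17 had a TE of 0.705 ± 0.117 (SD, n = 3) in place of 6.55 ± 1.04, and Mrps14 had 1.09 in place of 5.35. The median over members was then 1.20, with 2.14 over all measured transcripts. The 2 TEs shared 1 of their 5 highest members, Mrpl24, and 3 of their 5 lowest, Mrpl34, Mrpl37 and Mrps28. By the second measure the highest values were those of Mrps27 (4.45), Mrpl9 (3.51) and Mrpl44 (3.32). Of the 5 members with the highest TE by the first measure, Mrpl17 (6654 nt), Mrps14 (2563 nt), Mrpl35 (3105 nt) and Mrps26 (3641 nt) are annotated with long 3′UTRs, over a median of 330 nt for the members, while that of Mrpl24 is 319 nt. Across the 38 members, untreated TE rose with annotated transcript length (Spearman rho = 0.729), while TE from CDS reads did so less (rho = 0.223). All points share the same libraries, and transcript length multiplies the first TE, since it divides the RNAseq level that is the divisor of TE.

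The members were short mRNAs. Their median transcript length was 1404 nt, their median CDS 601.5 nt and their median 5′UTR 67.5 nt, beside 2650, 1218 and 173.5 nt over all measured transcripts. An ATG upstream of the CDS was present in 11 of 38 members (28.9%), beside 50.1% of all measured transcripts. The sequence around the start codon is shown for the lowest and highest TE by all RNAseq reads and for both members whose TE rose after KCl, since it is where a scanning ribosome begins. Each runs from 9 bases before the start codon, in capitals, to the base after it, taken from the GRCm38 annotation's transcripts.
Mrpl34: ccgctggatATGg
Mrpl37: ggagtcggtATGg
Mrpl28: ggtcgcgcgATGc
Mrps14: gcagacaacATGg
Mrpl17: ggtgagagcATGa
A purine stood 3 bases before the start codon in 37 of 38 members (97.4%), with 86.0% over all measured transcripts, and a G followed the start codon in 24 (63.2%), with 49.6% over all. Both features are parts of the Kozak consensus. Members with low and with high TE by all RNAseq reads carried the purine alike, Mrpl3 being the exception. With RNAseq reads on the CDS, Mrpl17 and Mrpl37 had near-equal TEs, 0.705 and 0.702, so the order shown does not hold there.

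RNA levels of many mitoribosomal proteins were lower after KCl. In RNAseq 15 of 38 measured members fell at an adjusted p under 0.05 in edgeR and 0 rose, where 15.1% of all measured transcripts fell and 17.9% rose. DESeq2 called 8 members lower and 0 higher, with 13% of all measured transcripts lower and 15.9% higher. At an unadjusted p under 0.05 in edgeR 18 members were lower and 0 higher. The share over all transcripts was not counted at that level. The fold change was below 0 on the log2 scale in 35 of 38 members, with a median of -0.41, and a median of -0.00 over all measured transcripts. Both KCl cultures were below all 3 untreated cultures in 27 of 38 members, and in 27.2% of all measured transcripts. Reads on the measured members summed to 1920, 2167 and 2233 per 1000000 in untreated cultures and to 1510 and 1666 per 1000000 in KCl cultures, with no overlap between the groups. Leaving out KCl culture 4 left 6 members past the threshold and leaving out untreated culture 3 left 7, all of them lower. With every scaling tried, 35 or 36 of the 38 members were below 0.

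**Figure D2:**
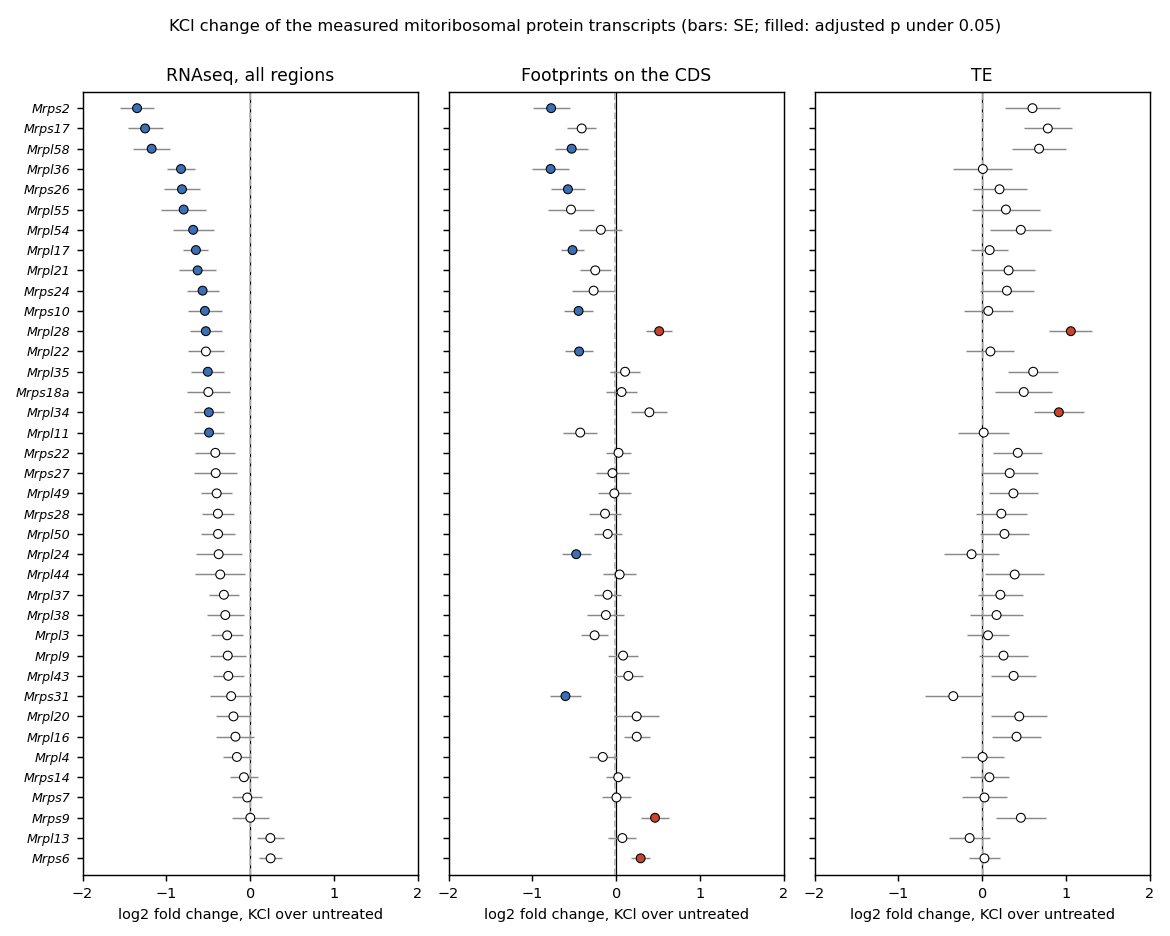
Log2 fold change of KCl over untreated cultures in RNAseq (left), CDS footprints (middle) and TE (right) for the 38 measured members, ordered by RNAseq, with bars for the standard error and filled points at an adjusted p under 0.05 (blue lower, red higher). The dashed line is the median of all measured transcripts. RNAseq points lie left of 0 in 35 of 38 members and TE points right of 0 in 35 of 38.

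Mrps2, a small-subunit protein with a bacterial counterpart, fell most. It had 96.9, 71.0 and 74.4 CPM, counts per 1000000 after normalization, in untreated cultures and 33.7 and 29.7 CPM in KCl cultures. The highest KCl value was far below the lowest untreated value, and the log2 fold change was -1.35 ± 0.201 (SE, adjusted p = 1.05e-06). Mrps2 lies at chr2:28468066-28471178 on the plus strand (GRCm38).

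Mrps17, which also belongs to the small subunit and has a bacterial counterpart, was at 67.3, 76.5 and 101 CPM untreated and at 27.1 and 40.7 CPM after KCl. The groups did not overlap, and it fell by 1.26 on the log2 scale (SE 0.209, adjusted p = 8.53e-06). All 6 measured transcripts of the gene (chr5:129715511-129718875, plus strand, for the one used) fell, by between -1.34 and -1.26, although they share reads.

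Mrpl58, a peptidyl-tRNA hydrolase built into the large subunit that releases peptides from stalled mitoribosomes, was at 56.8, 73.3 and 47.8 CPM untreated and at 22.6 and 29.7 CPM after KCl. It fell by 1.18 on the log2 scale (SE 0.219, adjusted p = 4.60e-05), and all 3 of its measured transcripts fell. It lies at chr11:115403752-115412674 on the plus strand. Mrpl36, a very small protein of the large subunit at chr13:73330988-73332178 on the plus strand, was at 117, 110 and 124 CPM untreated and at 60.8 and 70.7 CPM after KCl. Its log2 fold change was -0.83 ± 0.164 (SE, adjusted p = 0.000112). The untreated values of Mrpl36 were the closest together among these 4 members, with an SD of 6.54 CPM.

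Of the other members that fell, Mrps26, specific to mitochondria, changed by -0.81 on the log2 scale (adjusted p = 0.00239) and Mrpl55 by -0.79 (adjusted p = 0.0210). Mrpl54 changed by -0.68 (adjusted p = 0.0283) and Mrpl17 by -0.65 (adjusted p = 0.000773). Mrpl17 was the most deeply counted of the 15, at 176, 240 and 225 CPM untreated and 131 and 142 CPM after KCl. The remaining 7, Mrpl21, Mrps24, Mrps10, Mrpl28, Mrpl35, Mrpl34 and Mrpl11, fell by 0.63 to 0.49 on the log2 scale. Mrps26 did not pass without KCl culture 4 (-0.56, adjusted p = 0.111), nor Mrpl55 without untreated culture 3 or KCl culture 5 (-0.46 and adjusted p = 0.337 at the weakest), nor Mrpl54 without any 1 of untreated cultures 2 and 3 and KCl cultures 4 and 5. All 7 that fell by 0.63 or less lost the threshold without KCl culture 4. Mrpl28 then changed by -0.24 (adjusted p = 0.512), Mrps10 by -0.27 (adjusted p = 0.481) and Mrpl34 by -0.30 (adjusted p = 0.370), and by -0.93, -0.90 and -0.73 without KCl culture 5. Mrps2, Mrps17, Mrpl17 and Mrpl58 passed it in all 13 alternatives, and Mrpl36 in 12, with -0.49 (adjusted p = 0.144) when only CDS reads were used.

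**Figure D3:**
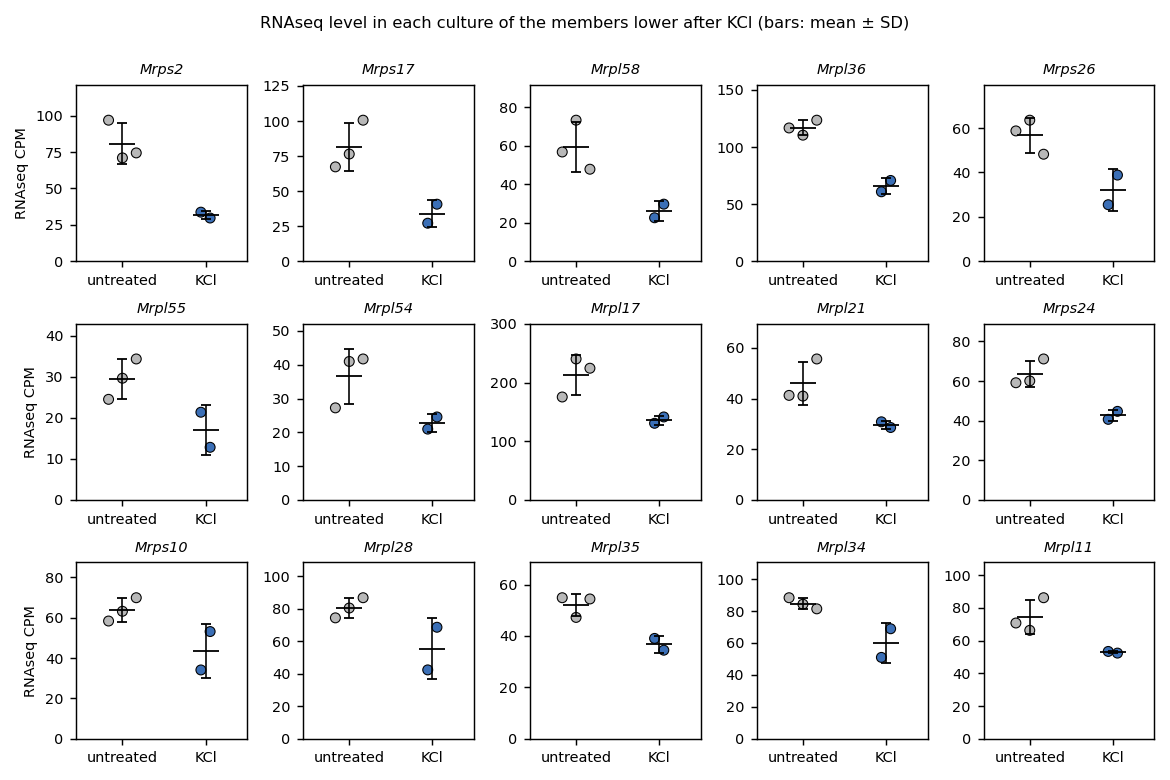
Normalized RNAseq CPM (axes from 0) of the 15 members lower after KCl in each untreated (grey, 3) and KCl culture (blue, 2), with bars for mean ± SD. No KCl culture reaches the range of the untreated cultures for any of the 15 members. The 15 were picked by their p-values from these same values, so this separation is not further support. Both KCl cultures were below all untreated cultures in 27.2% of all measured transcripts.

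Several members lay near or above 0. Mrps6, the most abundant, was at 296, 416 and 384 CPM untreated and at 395 and 469 CPM after KCl, so the groups overlapped. Its log2 fold change was 0.24 ± 0.136 (SE, adjusted p = 0.176). Mrpl13 had the same value, 0.24 (adjusted p = 0.262), and Mrps9 was at 0.00, Mrps7 at -0.04 and Mrps14 at -0.07 (adjusted p of 0.763 and above for these 3). For Mrpl13 27.0% of the transcript overlaps exons of Mtbp on the opposite strand, and the RNAseq kit did not mark strand. Exons of 12 measured members overlap those of another gene, on the opposite strand for 11 of them.

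Both the CDS and the 3′UTRs had lower summed reads after KCl. Summed RNAseq reads on the CDS of the members were 1107, 1226 and 1290 per 1000000 in untreated cultures and 838 and 967 in KCl cultures. On 3′UTRs they were 579, 668 and 668 in untreated and 476 and 484 in KCl cultures. Neither region had a KCl value within the untreated range. The CDS share of all RNAseq reads was also lower after KCl. It was 42.61, 42.29 and 41.02% in untreated and 39.35 and 40.56% in KCl cultures. With CDS reads only, 34 of 38 members were below 0 and 7 passed the threshold, all of them lower. In that fit 8.85% of all measured transcripts were lower and 12.2% higher. The RNAseq change and transcript length had a Spearman rho of -0.01 over the 38 members and of 0.14 over all 7262 measured transcripts.

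Promoters of the 3 members that fell most in RNAseq and of both whose TE rose are shown, as the sequence from which these mRNAs are transcribed. They are RefSeq windows of GRCm38.p6, limited to the stretch before the start that holds no annotated exon, and read in the direction of transcription. Capitals mark the ETS-family core CCGGAAG, the site of GABPA (NRF-2), a known regulator of genes for mitochondrial proteins.
Mrps2, chr2:28467816-28468065, plus strand: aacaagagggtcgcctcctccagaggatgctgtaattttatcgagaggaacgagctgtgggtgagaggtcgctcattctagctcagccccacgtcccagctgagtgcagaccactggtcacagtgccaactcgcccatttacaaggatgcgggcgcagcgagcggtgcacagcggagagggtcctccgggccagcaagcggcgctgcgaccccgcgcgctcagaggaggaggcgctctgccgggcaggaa
Mrps17, chr5:129715247-129715496, plus strand: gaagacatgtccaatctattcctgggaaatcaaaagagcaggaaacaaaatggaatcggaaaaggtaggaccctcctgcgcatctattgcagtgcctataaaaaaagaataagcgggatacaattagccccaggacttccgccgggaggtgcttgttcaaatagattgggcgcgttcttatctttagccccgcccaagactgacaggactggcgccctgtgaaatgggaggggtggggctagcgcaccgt
Mrpl58, chr11:115403502-115403751, plus strand: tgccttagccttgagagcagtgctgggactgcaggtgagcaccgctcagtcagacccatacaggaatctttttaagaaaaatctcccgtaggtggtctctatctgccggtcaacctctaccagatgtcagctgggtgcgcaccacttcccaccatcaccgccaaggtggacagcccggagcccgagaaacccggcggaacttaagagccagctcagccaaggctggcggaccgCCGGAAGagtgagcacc
Mrpl28, chr17:26123255-26123499, plus strand: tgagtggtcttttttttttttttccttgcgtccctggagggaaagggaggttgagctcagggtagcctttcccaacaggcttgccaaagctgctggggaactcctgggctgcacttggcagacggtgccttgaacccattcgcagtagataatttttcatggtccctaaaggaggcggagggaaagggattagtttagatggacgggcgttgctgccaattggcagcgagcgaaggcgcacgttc
Mrpl34, chr8:71464676-71464925, plus strand: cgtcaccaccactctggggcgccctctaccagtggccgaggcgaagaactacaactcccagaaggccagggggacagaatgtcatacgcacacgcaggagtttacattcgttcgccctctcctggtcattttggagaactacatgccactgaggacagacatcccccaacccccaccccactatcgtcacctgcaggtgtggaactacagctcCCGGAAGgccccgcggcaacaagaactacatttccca
The core begins 17 bases before the RefSeq start of Mrpl58 and 37 bases before that of Mrpl34, and these letters are not in the stretches of Mrps2, Mrps17 and Mrpl28.

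Motifs of 3 factors with known target genes among mitochondrial proteins were searched on both strands of the whole 300-base windows, which run from 250 bases before to 50 after each RefSeq start. A window was matched for 33 of the 38 measured members. CCGGAAG was present in 11 of them (33.3%) and in 8.86% of all 32851 windows. AANATGGCG, a core of YY1 sites, was present in 7 (21.2%) and in 2.38% of all windows, and GCATGCGC, a core of NRF1 sites, in 3 (9.09%) and in 2.71%. Of the 7 with the YY1 core, only Mrpl36 had it wholly before the start. In the others it reached into the 50 bases after the start. AANATGG also reads across the start codons of Mrpl35, Mrpl58, Mrps18a, Mrps24 and Mrps27, which have 5′UTRs of 17 to 52 nt. Whether these matches are the start codons themselves was not tested. None of the motifs contains another, and they can overlap at their ends. A match describes the sequence and is not a bound site.

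Footprint changes of the members centred nearer to 0. Of 38 members 9 fell and 3 rose in RF, where 20.1% of all measured transcripts fell and 20.8% rose. The share of members that fell was near the background. The median log2 fold change was -0.11, with -0.01 over all measured transcripts, and 23 members were below 0. In 15 of 38 members both KCl cultures were below all untreated cultures, while this held for 31% of all measured transcripts. The 12 calls became 6 without untreated culture 1, 4 without KCl culture 4 and 3 without KCl culture 5. Scaling by library totals in place of TMM moved the median of all transcripts to -0.11 and that of the members to -0.22, with 30 members below 0, 11 called lower and 1 higher.

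Mrpl36 had 33.2, 30.5 and 35.6 RF CPM in untreated cultures and 18.7 and 19.0 RF CPM after KCl, which was a log2 fold change of -0.78 ± 0.220 (SE, adjusted p = 0.00531). Mrps2 had 37.9, 33.7 and 29.0 RF CPM untreated and 16.9 and 22.3 RF CPM after KCl, with the same change of -0.78 ± 0.220 (SE, adjusted p = 0.00548). Neither gene's groups overlapped, but Mrpl36 did not pass without KCl culture 5 (adjusted p = 0.0888), nor Mrps2 without KCl culture 4 (adjusted p = 0.0764). Mrps31, a mitochondria-specific protein of the small subunit, fell by 0.61 on the log2 scale in RF (adjusted p = 0.00804), with an RNAseq change of -0.23 (adjusted p = 0.530), and did not pass in RF without KCl culture 5 (adjusted p = 0.180). Mrps26 (-0.58), Mrpl58 (-0.53), Mrpl17 (-0.52), Mrpl24 (-0.48), Mrps10 (-0.45) and Mrpl22 (-0.44) also fell in RF, the last close to its RNAseq change of -0.53 (adjusted p = 0.0512). Of these 6, all but Mrpl17 lost the threshold with DESeq2, with filterByExpr and without KCl culture 5, when Mrpl22 was at -0.24 (adjusted p = 0.517), and Mrpl17 lost it without KCl culture 4 (adjusted p = 0.0570). Mrpl17, Mrpl22 and Mrpl24 lie around the exit of the tunnel through which the mitoribosome releases its peptide. Mrpl24 shares 43.6% of its transcript with exons of Rrnad1 on the opposite strand.

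Mrpl28, a large-subunit protein with a bacterial counterpart, went the other way. It had 59.9, 57.3 and 50.6 RF CPM in untreated cultures and 95.1 and 71.4 RF CPM in KCl cultures. Both KCl values were above all untreated values, and RF rose by 0.51 (SE 0.156, adjusted p = 0.00947) on the log2 scale, with an RNAseq change of -0.53. Without KCl culture 4 the RF change was 0.33 (adjusted p = 0.227) and the RNAseq change -0.24 (adjusted p = 0.512), so that neither passed the threshold. Mrps9 rose by 0.46 (SE 0.168, adjusted p = 0.0282) and Mrps6 by 0.29 (SE 0.113, adjusted p = 0.0410) in RF. Scaled by library totals, Mrps6 and Mrps9 did not pass the threshold, and each also lost it when single cultures were left out, Mrps9 with 0.16 (adjusted p = 0.701) without KCl culture 5.

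**Figure D4:**
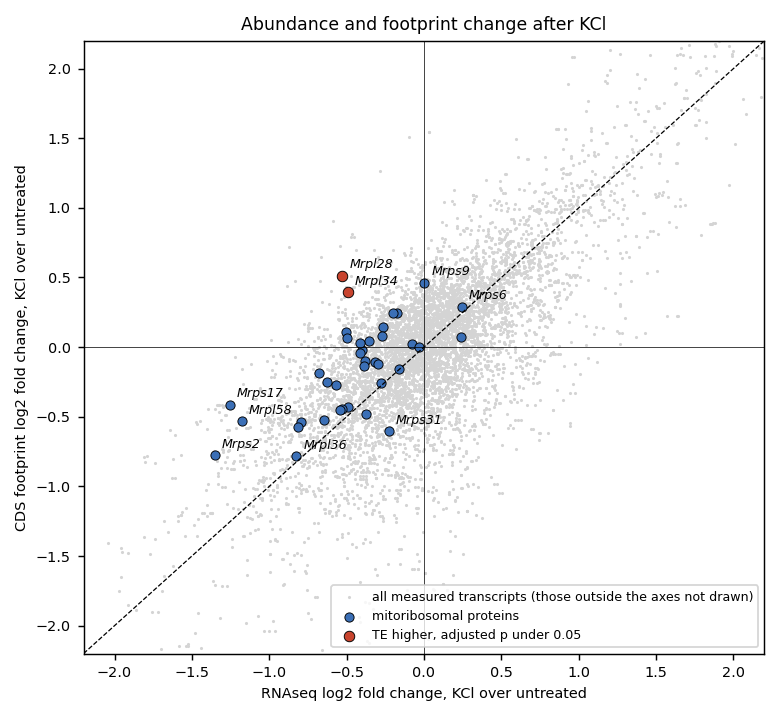
Log2 fold change (KCl over untreated) of RNAseq (horizontal) and of CDS footprints (vertical) for all measured transcripts (grey) and the 38 measured members (blue, or red where TE was higher at an adjusted p under 0.05), with the dashed line where both are equal. Most members lie left of the vertical zero line and above the dashed line, and Mrpl28 and Mrpl34 are the 2 red points.

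TE was higher after KCl for 2 of 38 members, Mrpl28 and Mrpl34, and lower for 0 (0 also at an unadjusted p under 0.05 and with DESeq2), where 1.53% of all measured transcripts were higher and 4.27% lower. The TE change was above 0 in 35 of 38 members and in 3712 of all 7262 measured transcripts. Its median was 0.27 on the log2 scale for the members and 0.01 over all measured transcripts. The count of 35 became 30 with RNAseq reads on the CDS only. It was 27 to 35 when 1 culture was left out, lowest without untreated culture 3. Both KCl cultures were above all untreated cultures in 14 of 38 members, and in 15.7% of all measured transcripts. TE has the RNAseq value as its divisor, so a lower RNAseq level and a higher TE in one member are not independent measurements. No member passed the threshold with DESeq2 (3 members at an unadjusted p under 0.05) or without KCl culture 4 (3 at an unadjusted p under 0.05), and 1 passed without any one of untreated cultures 2 and 3 and KCl culture 5.

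The TE of Mrpl28, here as the ratio of normalized CPM without lengths, was 0.806, 0.713 and 0.583 in untreated cultures and 2.25 and 1.04 in KCl cultures. Both KCl values were higher than all untreated ones, but they differed more from each other than the untreated values did. The log2 fold change was 1.06 ± 0.255 (SE, adjusted p = 0.00191), with 0.57 without KCl culture 4 (adjusted p = 0.558) and 1.67 without KCl culture 5 (adjusted p = 0.00115). Mrpl28 lies at chr17:26123500-26126613 on the plus strand.

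Mrpl34, the member with the lowest untreated TE by RPKM from all RNAseq reads, had CPM ratios of 0.312, 0.258 and 0.253 untreated and 0.681 and 0.431 after KCl. The groups did not overlap. The log2 fold change was 0.92 ± 0.294 (SE, adjusted p = 0.0362), and the threshold was not passed when any 1 of untreated cultures 2 and 3 and KCl cultures 4 and 5 was left out. Its RNAseq level fell by 0.49 on the log2 scale (-0.30 and adjusted p = 0.370 without KCl culture 4), and its RF level was 27.5, 21.7 and 20.6 CPM untreated and 34.7 and 29.7 CPM after KCl (adjusted p = 0.144). Mrpl34 lies at chr8:71464959-71465747 on the plus strand.

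Next by p came Mrps17 with a TE change of 0.78 (adjusted p = 0.0916), Mrpl58 with 0.68 (adjusted p = 0.241) and Mrpl35 with 0.61 (adjusted p = 0.265). For Mrps17 the CPM ratio was 0.666, 0.627 and 0.475 untreated and 1.41 and 0.810 after KCl. These 3 members fell in RNAseq. Mrps31 (-0.35), Mrpl13 (-0.15) and Mrpl24 (-0.13) were below 0, none past the threshold. Mrpl36, by contrast with Mrpl28, had nearly the same CPM ratio in all cultures, 0.276 to 0.288 untreated and 0.307 and 0.269 after KCl, a TE change of 0.01 ± 0.353 (SE).

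Members of both subunits were among those that fell. In RNAseq 10 of 25 measured members of the large subunit and 5 of 13 of the small subunit fell, with medians of -0.40 and -0.41 on the log2 scale. Among large-subunit members, 8 of 16 with a bacterial counterpart and 2 of 9 specific to mitochondria fell, with medians of -0.49 and -0.38. Of the former 15 were below 0, and of the latter all 9. In the small subunit 4 of 9 and 1 of 4 fell, with medians of -0.39 and -0.41. Over all measured transcripts 15.1% fell. The differences between the classes were not tested.

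Mitoribosomal subunits that carry other names were looked at too. All 4 were measured and all were below 0, with a median of -0.44. Aurkaip1, a subunit of the small subunit, fell by 0.64 on the log2 scale (adjusted p = 0.0115) and Chchd1, another, by 0.55 (adjusted p = 0.0187). Dap3, a GTP-binding subunit, stood at -0.01 (adjusted p = 0.973). Ptcd3, a pentatricopeptide repeat subunit, fell in RF by 0.80 (adjusted p = 0.000275), with -0.32 in RNAseq (adjusted p = 0.334).

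Of 10 mitochondrial translation factors counted, 1 was measured. Oxa1l, the insertase that receives new peptides at the inner membrane, fell by 0.51 in RNAseq (adjusted p = 0.0199). Of 19 genes for mitoribosome assembly and rRNA modification, 7 were measured, of which 3 fell and 0 rose in RNAseq. Malsu1, which binds the large subunit as it is assembled, fell by 1.15 on the log2 scale (adjusted p = 0.000433) and Ngrn, which is needed for the large-subunit rRNA, also by 1.15 (adjusted p = 0.000397). Slirp, an RNA-binding partner of Lrpprc, fell by 0.64 (adjusted p = 0.00403). Lrpprc itself, which stabilizes mitochondrial mRNAs, was at 0.07 in RNAseq (adjusted p = 0.802) and rose by 0.38 in RF (adjusted p = 0.00367).

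The measured regulators of mitochondrial gene expression were mostly higher. Of 12 counted, 6 were measured, and 5 of these rose in RNAseq and all 6 in RF, with an RNAseq median of 1.11 on the log2 scale. Ppargc1a, the coactivator PGC-1α, went from 38.6 to 148 CPM in the group means (1.94 ± 0.168, SE, adjusted p = 3.94e-12). Nrf1, the factor of the GCATGCGC core, rose by 1.30 (adjusted p = 8.95e-08), Yy1 by 1.28 (adjusted p = 7.83e-07), Myc by 0.94 (adjusted p = 4.32e-06) and Pprc1, a relative of Ppargc1a, by 0.68 (adjusted p = 0.00280). Gabpa, the DNA-binding subunit of GABP, was at 0.34 in RNAseq (adjusted p = 0.116) and rose by 0.68 in RF (adjusted p = 9.81e-05). The regulators not measured, which the main fit left out, did not share a direction in RNAseq. Polrmt had 15.03, 14.87 and 15.05 CPM by library totals in untreated cultures and 9.269 and 10.74 CPM after KCl. Tfam had 19.94, 20.14 and 19.63 CPM untreated and 17.92 and 7.163 CPM after KCl. Gabpb1 went the other way, with 3.681 to 4.647 CPM untreated and 5.87 and 6.061 CPM after KCl. Esrra and Gabpb2 overlapped between the groups, and Tfb2m had no read. All of these are mRNA and footprint levels and say nothing of the activity of the factors.

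The nuclear-encoded subunits of the respiratory chain, which assemble with the products of the mitoribosome, were set beside the members. Of 56 counted 36 were measured, and in RNAseq 5 fell and 3 rose, with a median of -0.13 on the log2 scale. Of all measured transcripts 15.1% fell and 17.9% rose in RNAseq. In RF 2 fell and 7 rose, with a median of 0.14, and in TE 2 rose, with a median of 0.19. The shares over all measured transcripts were 20.1% lower and 20.8% higher in RF, and 1.53% higher in TE. The values of the members, -0.41, -0.11 and 0.27, were thus lower in RNAseq and RF, but the difference between the lists was not tested. Cytosolic ribosomal proteins could not serve as a comparison, because 3 of 43 were measured.

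Markers of cell types were measured beside the members in RNAseq. The 6 astrocyte markers summed to 9874 to 10660 CPM in untreated and 7866 to 8149 CPM in KCl cultures, and Aqp4, Slc1a2 and Slc1a3 fell. The 6 microglial markers summed to 185 to 198 and 145 to 166 CPM, with none of the 2 measured called, the 6 of the oligodendrocyte lineage to 1223 to 1328 and 1109 to 1116 CPM with Pdgfra lower, and the 4 vascular and fibroblast markers to 339 to 393 and 252 to 281 CPM with Col1a1, the 1 measured, lower. The 6 neuronal markers counted summed to 418 to 612 and 498 to 546 CPM, with none of the 4 measured called. No marker was at 0 in all cultures. The astrocyte markers, of which 3 of 6 fell, had an RNAseq median of -0.31 on the log2 scale and a TE median of 0.31, with Aldoc at 0.17 (adjusted p = 0.301) in RNAseq, and their part in the members' change was not tested.

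The 21 members that were not measured failed to reach 10 RPKM in 2 cultures in both assays (11), in RF only (6) or in RNAseq only (4). A low RF level here is not by itself low occupancy of the mRNA. Mrpl41 had CDS footprints in 4 cultures but no RNAseq read on the CDS in any library. Mrpl10 had an untreated TE of 0.3 by all RNAseq reads and of 7.4 by RNAseq reads on the CDS. Mrps23 and Mrps36 had no read in any library, and Mrps18c had at most 2 RNAseq reads and 4 CDS footprints. Mrpl18, Mrpl27, Mrpl30, Mrpl42, Mrpl48, Mrpl51, Mrps21 and Mrps33, 8 members in all, had RNAseq reads but were listed at 0 CDS footprints in every library. None of these 8 had an RNAseq read on the CDS in any library either. Their CDS was thus without counts in both assays, and the zeros say nothing of their translation. Mrps21, for example, had 53 to 64 RNAseq reads and Mrpl18 59 to 92. The authors left degenerate sequences out of the transcriptome before alignment, and the part of that step in these zeros was not tested. In an edgeR fit without the filter on low values, 11 of 57 members were lower in RNAseq after KCl and 0 higher. Of all transcripts in that fit 8.6% were lower and 10.3% higher. The 11 included Mrpl12 (-0.76, adjusted p = 0.00152), Mrpl10 (-0.68, adjusted p = 0.0188) and Mrpl41 (-0.82, adjusted p = 0.0359). Mrpl18, Mrpl27, Mrps18c, Mrps21 and Mrps30, also not measured, were above 0, none past the threshold. Mrpl11 (adjusted p = 0.0872), Mrpl28 (0.0512) and Mrpl34 (0.0723), among other measured members, no longer passed.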

How the data were processed

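RNAseq and RF libraries of 3 untreated and 2 KCl cultures were used. Per the labels and the study's methods, the authors trimmed reads (Trimmomatic 0.32), removed rRNA reads (STAR 2.3.1z8), aligned the rest to an mm10 transcriptome without degenerate sequences (Bowtie2 2.2.2), kept reads mapping to several transcripts, and deposited raw counts per transcript region (bedtools 2.20.1) with no normalization. The KCl and cycloheximide doses come from the study's methods.

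Region letters were read as 5′UTR, CDS and 3′UTR, and 1 region is unnamed. Of 22534 transcripts, 22172 (98.4%) matched the GRCm38 annotation. The test of each count was edgeR's robust quasi-likelihood fit (version 4.0.16, R 4.3.3), with TMM within each assay and Benjamini-Hochberg adjustment over all 7262 measured transcripts. TE was tested as the assay-by-treatment interaction, blocked on culture. RNAseq and RF of a culture share a lysate and a number, and the deviations of the 2 libraries from their group means correlated between -0.0731 and 0.0629. The SE is the log2 fold change over the root of F, an approximation. RPKM used library totals. Scripts were tested on simulated data. Python 3.11.15 was used for descriptions.

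Named members were up to 8 with the largest rise and up to 8 with the largest fall among those past the threshold in each measure, the 5 smallest p where fewer than 3 passed, the 5 highest and lowest untreated values, and members with under 10 reads in all libraries; others were named after their values were seen. Members and lists were chosen with earlier results of these data known. The motifs were chosen afterwards. DESeq2 1.42.0, other scalings, filters, regions and leaving out each culture were tried as alternatives.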

Additional observations from a re-analysis of the deposited data

How the results depend on the processing

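No member that passed a threshold changed direction under any alternative. The 15 members called in RNAseq became 8 with DESeq2, 7 with RNAseq reads on the CDS only and 6 to 15 when 1 culture was left out (6 without KCl culture 4, 7 without untreated culture 3). The 12 called in RF became 4 with DESeq2, 7 with edgeR's filterByExpr, 7 with no filter beyond 1 read, 6 in 1 fit of all 10 libraries and 3 to 13 when 1 culture was left out (6 without untreated culture 1, 4 without KCl culture 4, 3 without KCl culture 5). The 2 called in TE became 0 with DESeq2, 1 with filterByExpr, 1 with no filter, 1 with RNAseq reads on the CDS only and 0 to 3 when 1 culture was left out (1 without untreated culture 2 or 3 or KCl culture 5, 0 without KCl culture 4). Without the replicate block 2 members were called in TE, and the pairing changed no call. The untreated TE of the members had a median of 1.20 with RNAseq reads on the CDS in place of 1.58. All measured transcripts called in TE numbered 421, with 174 by DESeq2, 266 with CDS reads, 258 with 1 transcript per gene and 70 to 547 when 1 culture was left out. Library totals in place of TMM moved the median of all transcripts to -0.08 in RNAseq and -0.11 in RF, with 20.4% lower and 15.1% higher in RNAseq and 26.7% lower and 16.1% higher in RF, and called 17 members lower in RNAseq and 11 lower and 1 higher in RF. The depth of the RF libraries and the number of KCl cultures, 2, limit the precision of the TE values, and the cause of each lost call was not tested.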
